A study of Mus musculus with 4 samples.

Results

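The 10 genes described here encode transcription factors that direct intestinal progenitors into the secretory lineages: Atoh1, Gfi1, Spdef, Neurog3, Neurod1, Pax4, Insm1, Rfx6, Foxa1 and Foxa2. They were chosen by name, and each was found by matching its symbol to 1 of the 38124 mouse gene IDs in the count tables. All 10 were matched, and all 10 passed the filter of at least 20 reads in at least 2 of the 4 libraries that preceded the tests.

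Cells leaving the crypt base become absorptive enterocytes or secretory cells, and Notch signalling between neighbouring cells decides between these fates. Atoh1 is the basic helix-loop-helix factor that commits a progenitor to the secretory side, and it is repressed by the Notch target Hes1. Gfi1 and Spdef act after Atoh1 in goblet and Paneth cell formation, whereas Neurog3 starts the enteroendocrine programme that Neurod1, Pax4, Insm1 and Rfx6 carry on. Foxa1 and Foxa2 are forkhead factors present across the gut epithelium that take part in goblet and enteroendocrine cell formation.

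Poly(A) RNA was sequenced from sorted intestinal cells of C57BL/6 male mice aged 71 weeks. The animals ate either a high-fat diet, called HFD here, or a normal diet, the control, whose libraries are named WT or Old in some labels. Cells were sorted by GFP, and the labels call the GFP-high fraction intestinal stem cells and the GFP-low fraction progenitors. Each of the 4 combinations of diet and fraction had 1 library, and every library pooled cells from 2 to 5 mice. What drives GFP and what the diets contained is not given in the sources used here, nor is it stated whether the same animals gave both fractions.

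The libraries held between 4677389 and 6207080 reads assigned to genes. The stem cell marker Lgr5 was at 242.1 and 241.5 CPM (counts in a library brought to 1000000 reads, with TMM scaling between libraries) in the HFD and control GFP-high libraries and at 12.5 and 12.7 in the corresponding GFP-low libraries. Of the 15 stem cell markers, Tnfrsf19 reached the filter in the GFP-high libraries alone and so had to be higher there. All the others were also higher in GFP-high, and Olfm4, the most abundant of the 15, was 7.31-fold higher. None of 12 leukocyte markers and none of 16 stromal, endothelial, glial and neural markers had enough reads to be tested. Ptprc, the pan-leukocyte surface antigen, was at 0 in all 4 libraries, which allows at most 0.641 CPM on the unscaled library total. The leukocyte list summed to between 3.45 and 8.16 CPM, and the stromal, endothelial, glial and neural list to between 3.44 and 6.14 CPM.

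The upstream sequences of 3 of the genes are shown because their levels moved in contrasting ways: Atoh1 and Spdef followed each other closely over the 4 libraries, and Neurog3 did not follow them. Each sequence is the 250 bases before the RefSeq transcription start on GRCm38.p6, written 5′ to 3′ along the gene. Capitals mark matches to any of 4 motifs searched on both strands: CANCTG, the E-box bound by basic helix-loop-helix factors such as Atoh1 and Neurog3; CACNAG, the N-box bound by Hes factors; TGGGAA, the core of Notch-dependent Rbpj sites; and TATAAA, the TATA box.
Atoh1, chr6:64728875-64729124, plus strand: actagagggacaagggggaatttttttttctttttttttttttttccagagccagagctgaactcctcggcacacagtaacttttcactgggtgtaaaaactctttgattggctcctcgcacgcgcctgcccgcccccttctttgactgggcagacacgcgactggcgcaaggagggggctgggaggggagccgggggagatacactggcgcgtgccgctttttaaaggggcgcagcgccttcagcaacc
Spdef, chr17:27728952-27729201, minus strand: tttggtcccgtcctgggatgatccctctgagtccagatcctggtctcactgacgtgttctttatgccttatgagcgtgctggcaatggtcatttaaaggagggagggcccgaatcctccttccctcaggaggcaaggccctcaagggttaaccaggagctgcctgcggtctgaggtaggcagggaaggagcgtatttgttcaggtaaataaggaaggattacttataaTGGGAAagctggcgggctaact
Neurog3, chr10:62132840-62133089, plus strand: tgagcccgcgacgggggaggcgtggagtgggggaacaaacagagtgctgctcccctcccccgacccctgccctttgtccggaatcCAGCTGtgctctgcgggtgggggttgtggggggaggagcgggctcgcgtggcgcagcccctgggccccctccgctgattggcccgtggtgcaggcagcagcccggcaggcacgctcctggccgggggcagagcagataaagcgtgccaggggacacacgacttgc

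The Neurog3 window held 1 E-box, with the letters CAGCTG, that began 165 bases before the start. The Spdef window held 1 TGGGAA match, 22 bases before the start, and the Atoh1 window held no match to any of the 4 motifs. Matches of this kind are common: of 32851 RefSeq windows of the same length, 44.8% held CANCTG, 36.7% CACNAG, 21.6% TGGGAA and 12.4% TATAAA. The Atoh1 and Neurog3 windows contained no annotated exon base, and the Spdef window ended with 4 bases of the first annotated exon. Entries were found for 8 of the 10 genes, with 11 start sites in all, and Pax4 and Insm1 had none.

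The genes themselves lie on 6 chromosomes in GENCODE M21 on GRCm38, and all are protein-coding. Atoh1 (ENSMUSG00000073043, chr6:64729125-64731245), Neurog3 (ENSMUSG00000044312, chr10:62133090-62134763) and Insm1 (ENSMUSG00000068154, chr2:146221921-146225020) are each a single exon block on the plus strand. Spdef (ENSMUSG00000024215) covers chr17:27714352-27728955 on the minus strand and Gfi1 (ENSMUSG00000029275) chr5:107716657-107726036 on the minus strand. Neurod1 (ENSMUSG00000034701) lies at chr2:79452521-79456751, Pax4 (ENSMUSG00000029706) at chr6:28442334-28449353 and Rfx6 (ENSMUSG00000019900) at chr10:51677756-51730432. Foxa1 (ENSMUSG00000035451) lies at chr12:57540628-57546916 and Foxa2 (ENSMUSG00000037025) at chr2:148042877-148046969. The Neurog3 exon shares 273 bases with Fam241b on the opposite strand, a gene with 96, 77, 65 and 72 reads in the GFP-high and GFP-low libraries of HFD and then of control mice. The strand setting of the counting is not known from these sources, so the Neurog3 counts may be affected there. Exons of Neurod1 and Gfi1 also overlap other genes, none with more than 3 reads in any library.

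The factors differed widely in abundance. To compare genes, CPM were divided by the summed exon length in kb and averaged over the 4 libraries. Atoh1 was the highest at 40.5 CPM per kb, followed by Spdef at 29.7 and Foxa1 at 18.0. Neurog3 and Foxa2 were both at 10.9, and Insm1 at 4.58, Neurod1 at 4.30 and Gfi1 at 3.88 lay below them. Pax4 at 2.34 and Rfx6 at 2.32 were the lowest. Atoh1 was above Spdef, Foxa1 above Neurog3 and Foxa2 above Insm1 in 4 of 4 libraries. The other neighbours in this order exchanged places in at least 1 library, so their order was within the spread between libraries.

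**Figure D1:**
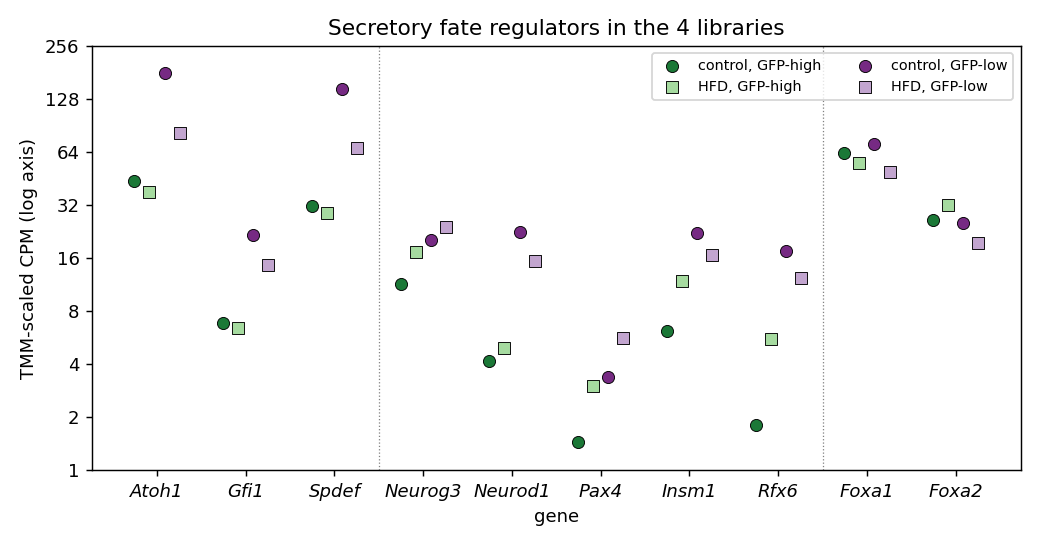
TMM-scaled CPM of the 10 factors, on a log axis, in the 4 libraries. Each point is 1 library, circles are control and squares HFD, green is GFP-high and purple GFP-low, and dotted lines separate the goblet and Paneth side, the endocrine side and the Foxa pair. Atoh1 and Spdef are highest in control GFP-low, at 179.9 and 145.9 CPM. Rfx6 has its own lowest level in control GFP-high, at 1.81 CPM, where Pax4 is at 1.45 CPM.

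The first comparison asked how the factors differ between stem cells and progenitors. Of the 10 factors, 8 were lower in GFP-high than in GFP-low over both diets and none was higher by edgeR's quasi-likelihood test with Benjamini-Hochberg adjustment at 0.05, in a model with diet and fraction. They were all 3 factors of the goblet and Paneth side and all 5 of the endocrine side, whereas Foxa1 and Foxa2 were not called. The same test called 47.6% of the 10694 genes tested, 25.6% lower and 22.0% higher in GFP-high, so a call was common. The median log2 difference of the 10 factors was -1.25, beside 0.00 over all tested genes. In these bulk libraries fewer cells of a type and less RNA per cell cannot be told apart.

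Atoh1 had 254 reads in HFD GFP-high, 404 in HFD GFP-low, 242 in control GFP-high and 794 in control GFP-low. These counts correspond to 38.1, 81.7, 43.8 and 179.9 CPM, with both GFP-low libraries above both GFP-high libraries. Atoh1 was 3.0-fold lower in GFP-high (log2 difference -1.59 ± 0.25 SE, edgeR adjusted p = 0.0080). Spdef, an ETS factor of goblet cell maturation, had 192, 334, 174 and 644 reads in the same order, or 28.8, 67.6, 31.5 and 145.9 CPM. The pattern repeated that of Atoh1, with control GFP-low above the other libraries and the GFP-high libraries lowest. Spdef was 3.34-fold lower in GFP-high (log2 difference -1.74 ± 0.26 SE, edgeR adjusted p = 0.0054). Gfi1, a zinc finger repressor that acts after Atoh1, had 43, 72, 38 and 95 reads, or 6.44, 14.6, 6.88 and 21.5 CPM. Both GFP-low libraries were again above both GFP-high libraries, an order whose share over all tested genes was not counted. Gfi1 was 2.66-fold lower in GFP-high (log2 difference -1.41 ± 0.25 SE, edgeR adjusted p = 0.00025).

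On the endocrine side the largest differences were those of Neurod1 and Rfx6, and the smallest was that of Neurog3. Neurod1, a helix-loop-helix factor downstream of Neurog3, had 33, 76, 23 and 99 reads in the GFP-high and GFP-low libraries of HFD and then of control mice, or 4.94, 15.4, 4.16 and 22.4 CPM. Neurod1 was 4.04-fold lower in GFP-high (log2 difference -2.01 ± 0.28 SE, edgeR adjusted p = 2.5e-05). Rfx6, a winged-helix factor of endocrine differentiation, had 37, 61, 10 and 77 reads, or 5.54, 12.3, 1.81 and 17.4 CPM, and was 3.95-fold lower (edgeR adjusted p = 0.0043). The GFP-low libraries were above the GFP-high libraries for both genes, and the control GFP-high library was the lowest of the 4.

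Insm1, a zinc finger repressor of endocrine precursors, had 79, 82, 34 and 98 reads, or 11.8, 16.6, 6.15 and 22.2 CPM. It was 2.13-fold lower in GFP-high (log2 difference -1.09 ± 0.30 SE, edgeR adjusted p = 0.012). Neurog3, the factor that starts endocrine commitment, had 116, 119, 63 and 89 reads, or 17.4, 24.1, 11.4 and 20.2 CPM. It was 1.54-fold lower in GFP-high (log2 difference -0.62 ± 0.19 SE, edgeR adjusted p = 0.013), with the HFD GFP-high library close to control GFP-low. Pax4, a paired-homeobox factor of endocrine subtypes, had 20, 28, 8 and 15 reads, or 3.0, 5.67, 1.45 and 3.40 CPM. It passed the count filter through the HFD libraries alone, and its 2.03-fold lower level in GFP-high was close to the threshold (edgeR adjusted p = 0.046). Under other scalings and with no filter the edgeR adjusted p of Pax4 lay between 0.051 and 0.098, and DESeq2's Wald test called neither Pax4 (adjusted p = 0.37) nor Neurog3 (adjusted p = 0.22).

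Foxa1 and Foxa2 were not called between fractions. Foxa1 had 371, 245, 349 and 315 reads, or 55.6, 49.6, 63.2 and 71.4 CPM. Its log2 difference was -0.01 ± 0.12 SE (edgeR adjusted p = 0.96) and became 0.18 when libraries were scaled by their totals alone. Foxa2 had 215, 96, 145 and 112 reads, or 32.2, 19.4, 26.2 and 25.4 CPM. Its log2 difference was 0.40 ± 0.18 SE (edgeR adjusted p = 0.083), with HFD GFP-high highest and HFD GFP-low lowest. Scaling by library totals, which moved the median of all genes from 0.00 to 0.19, brought Foxa2 to 0.59 and past the threshold (edgeR adjusted p = 0.017) and took Neurog3 (0.073) and Pax4 (0.098) out of it.

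The fraction difference had the larger value under the control diet than under HFD for each of the 8 called factors. The counting interval of this difference between the diets included 0 for Gfi1, Neurog3, Neurod1 and Pax4. How often the control value was the larger over all tested genes was not counted. After adding 0.5 CPM, 7 of the 10 factors were at least 2-fold lower in GFP-high under the control diet and 5 under HFD. Over all 10694 tested genes, 954 were at least 2-fold lower under the control diet and 927 under HFD. Rfx6 was 9.64-fold lower in GFP-high under the control diet, on 10 reads against 77, and 2.23-fold lower under HFD. Neurod1 was 5.39-fold lower under the control diet and 3.11-fold under HFD. Atoh1 was 4.11-fold and 2.15-fold lower, and Spdef 4.63-fold and 2.35-fold lower. Insm1 was 3.61-fold lower under the control diet, and its log2 ratio under HFD was -0.49 with a 95% interval of -0.95 to -0.02 that covers counting error only. With only the fraction in the model 4 factors were called over all 4 libraries. A library can be left out only in that smaller model, which then called 3 factors without HFD GFP-high, 4 without HFD GFP-low, 1, Neurod1, without control GFP-high and 3 without control GFP-low. The 8 factors called with both terms had log2 differences below 0 in each of these fits, such as -1.58 for Atoh1 and -1.76 for Spdef without HFD GFP-high.

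**Figure D2:**
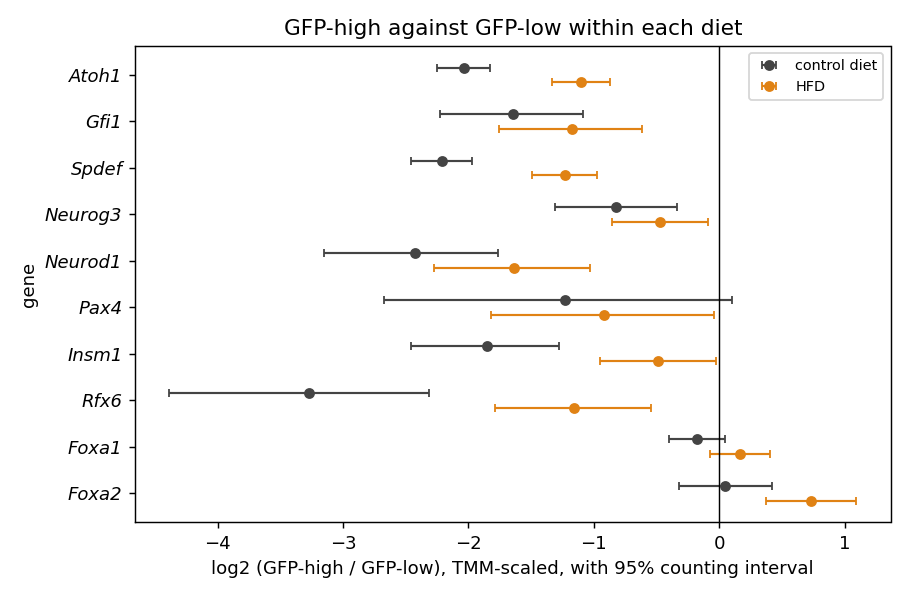
For each factor, the log2 ratio of GFP-high to GFP-low within the control diet (grey) and within HFD (orange), from 1 library per group, with exact 95% intervals that cover counting error only. Rfx6 shows the most negative ratio, -3.27 under the control diet, and Foxa2 under HFD the most positive, 0.73.

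The second comparison asked how the factors differ between diets. None of the 10 was called between diets over both fractions by edgeR's quasi-likelihood test. Of the 10, 4 had an unadjusted p under 0.05 in that test, as did 2174 of all 10694 tested genes. After adjustment the test called 6.46% of all tested genes, 2.96% higher and 3.50% lower under HFD. DESeq2's Wald test called none of the 10. The Atoh1 log2 difference (HFD over control) was -0.73 ± 0.25 SE (edgeR adjusted p = 0.22), and that of Spdef was -0.70 ± 0.25 SE (edgeR adjusted p = 0.23). Both were called lower when edgeR's empirical Bayes step was not robust, with adjusted p-values of 0.011 for Atoh1 and 0.019 for Spdef, and when no count filter was applied. Without the control GFP-low library, in a model with diet alone, the log2 differences of Atoh1 and Spdef were 0.45 and 0.61. That fit sets both HFD fractions against control GFP-high alone, so diet and fraction cannot be told apart in these values.

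The values within each fraction show where these differences lay. They rest on 1 library per group, so they have no replicate check, and the intervals given cover counting error only. In GFP-low, Atoh1 was 2.20-fold lower under HFD, at 81.7 against 179.9 CPM (log2 ratio -1.14, interval -1.31 to -0.96). Spdef was 2.16-fold lower, at 67.6 against 145.9 CPM (log2 ratio -1.11, interval -1.31 to -0.92). Gfi1 was 1.48-fold lower (interval of the log2 ratio -1.02 to -0.11). Summed, the 3 factors of the goblet and Paneth side had 163.9 CPM in HFD GFP-low and 347.3 in control GFP-low. Atoh1 and Spdef were the 2 factors at least 2-fold lower in GFP-low, a size reached by 2.45% of all tested genes, and none of the factors was at least 2-fold higher, where 1.51% of all genes were.

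In GFP-high the same 3 factors had log2 diet ratios near 0. Atoh1 was at 38.1 CPM under HFD and 43.8 under control (log2 ratio -0.20, interval -0.46 to 0.06), Spdef at 28.8 and 31.5 (-0.13, interval -0.43 to 0.17) and Gfi1 at 6.44 and 6.88 (-0.09, interval -0.76 to 0.57). The diet ratio in GFP-high divided by that in GFP-low was 1.91 for Atoh1 and 1.97 for Spdef. On the log2 scale the intervals of these quotients were 0.62 to 1.25 and 0.62 to 1.34. This difference between fractions was not tested, since the 4 libraries leave no replicate for it.

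Pax4 reached the count filter through the HFD libraries alone, so it is left out of the sums, shares and medians of the endocrine side, a choice made after seeing the data. In GFP-high the other 4 endocrine factors were at higher values under HFD. Together they had 265 reads, or 39.7 CPM, in HFD GFP-high and 130 reads, or 23.5 CPM, in control GFP-high, a ratio of 1.69 with an interval of 1.36 to 2.10. Rfx6 was 3.06-fold higher, at 5.54 against 1.81 CPM (interval of the log2 ratio 0.58 to 2.79). Insm1 was 1.92-fold higher (interval 0.35 to 1.57) and Neurog3 1.52-fold higher (interval 0.15 to 1.07). The intervals of Neurod1 (-0.56 to 1.08) and Pax4 (-0.20 to 2.44) included 0. Rfx6 was the 1 factor at least 2-fold higher after adding 0.5 CPM, where 0.888% of all tested genes were, and no factor was at least 2-fold lower, where 1.41% were.

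In GFP-low the endocrine factors did not share 1 direction. Neurog3 and Pax4 were at higher values under HFD, with log2 ratios of 0.26 (interval -0.15 to 0.67) and 0.74 (interval -0.22 to 1.75). Neurod1, Insm1 and Rfx6 were at lower values, with log2 ratios of -0.54 (interval -0.99 to -0.10), -0.42 (interval -0.86 to 0.02) and -0.50 (interval -1.01 to 0.00). Without Pax4 their summed level was 68.4 CPM under HFD and 82.2 under control, a ratio of 0.832 with an interval of 0.715 to 0.967. With Pax4 included the ratio was 0.865, and its interval of 0.747 to 1.001 included 1. Of the 5 intervals of single factors, that of Neurod1 lay wholly below 0.

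**Figure D3:**
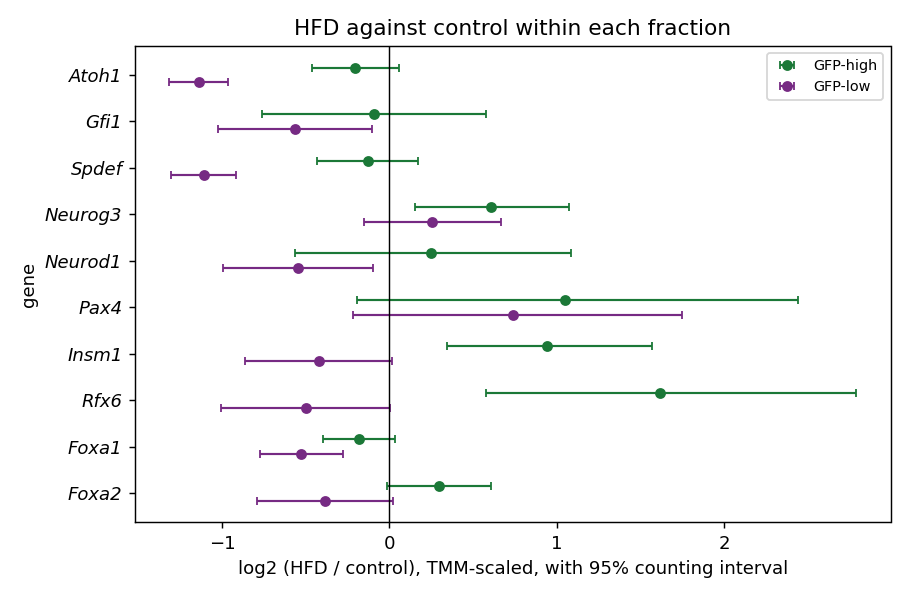
Log2 ratio of HFD over control for each factor within GFP-high (green) and GFP-low (purple), from 1 library per group, with exact 95% intervals that cover counting error only. Atoh1 and Spdef lie at -1.14 and -1.11 in GFP-low and near 0 in GFP-high, whereas Rfx6 lies at 1.62 and Insm1 at 0.94 in GFP-high.

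Foxa1 was 1.44-fold lower under HFD in GFP-low, at 49.6 against 71.4 CPM (interval of the log2 ratio -0.77 to -0.28), and 1.14-fold lower in GFP-high (interval -0.40 to 0.03). Foxa2 was 1.31-fold lower in GFP-low (interval -0.79 to 0.02) and 1.23-fold higher in GFP-high (interval -0.02 to 0.61). Over both fractions the Foxa1 log2 difference was -0.35 ± 0.12 SE (edgeR adjusted p = 0.11), and that of Foxa2 was 0.00 ± 0.18 SE (edgeR adjusted p = 1.0).

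Ratios of factors within a library do not depend on how libraries are scaled. For each Atoh1 read there were 0.457 Neurog3 reads in HFD GFP-high (interval 0.363 to 0.571) and 0.260 in control GFP-high (0.194 to 0.345). In GFP-low the ratio was 0.295 under HFD (0.238 to 0.362) and 0.112 under control (0.0890 to 0.140). The ratio was thus higher under HFD in both fractions, and the intervals of the diets did not overlap in either. Spdef reads per Atoh1 read stayed between 0.719 and 0.827 in the 4 libraries, with intervals that overlapped. Neurod1 reads per Neurog3 read were 1.11 in control GFP-low (0.827 to 1.5), 0.639 in HFD GFP-low (0.472 to 0.859), 0.365 in control GFP-high (0.216 to 0.597) and 0.284 in HFD GFP-high (0.187 to 0.422). Rfx6 reads per Neurog3 read were 0.159 in control GFP-high (0.0726 to 0.312) and 0.319 in HFD GFP-high (0.214 to 0.465), and 0.865 (0.629 to 1.19) and 0.513 (0.370 to 0.704) in the GFP-low libraries. Insm1 reads per Neurog3 read were 0.540 (0.345 to 0.832) and 0.681 (0.505 to 0.914) in the control and HFD GFP-high libraries and 1.10 (0.818 to 1.48) and 0.689 (0.514 to 0.921) in the GFP-low libraries. The intervals of the diets overlapped for Neurod1, Rfx6 and Insm1 in both fractions. The 3 goblet and Paneth factors made up 65.6% of all reads of the 10 factors in control GFP-low and 53.4% in HFD GFP-low, with exact binomial intervals of 63.6% to 67.5% and 50.8% to 55.9%. In GFP-high their share was 41.8% under control (38.9% to 44.8%) and 36.0% under HFD (33.4% to 38.6%). With Pax4 left out of both counts, the endocrine factors made up 12.1% in control GFP-high (10.2% to 14.2%) and 19.8% in HFD GFP-high (17.7% to 22.0%). In GFP-low they made up 15.6% under control (14.2% to 17.2%) and 22.7% under HFD (20.6% to 24.9%). Their summed level in GFP-low was lower under HFD, at 68.4 against 82.2 CPM, so a higher share was not a higher level there.

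Markers of the cell types that these factors specify were measured in the same libraries. Goblet markers were lower in GFP-high in 14 of 14 tested, and 4 were lower under HFD by edgeR. All 15 listed goblet markers, tested or not, summed to 42027 CPM in control GFP-low, 18569 in HFD GFP-low, 3769 in control GFP-high and 3342 in HFD GFP-high. Muc2, the main secreted mucin of goblet cells, was at 2701 CPM in control GFP-low and 981.6 in HFD GFP-low, and Fcgbp, the most abundant marker, at 24897 and 10990. In GFP-low all 14 tested goblet markers were at lower values under HFD with a median log2 ratio of -0.99, and in GFP-high the median was -0.14. The median ratios of Atoh1, Gfi1 and Spdef were -1.10 and -0.13. The part of goblet cell numbers in the Atoh1 and Spdef values was not tested.

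Of 14 enteroendocrine markers tested, 7 reached the filter in the GFP-low libraries alone and so had to be lower in GFP-high. Of the other 7, among them Chga and Chgb, 3 were called lower in GFP-high and none higher. Under HFD 2 of the 14 were lower. All 20 listed enteroendocrine markers, tested or not, summed to 1318 CPM in control GFP-low, 566.4 in HFD GFP-low, 85.4 in control GFP-high and 114.3 in HFD GFP-high. Chga, the granule protein chromogranin A, was at 215.7 CPM in control GFP-low, 75.7 in HFD GFP-low, 7.60 in control GFP-high and 10.6 in HFD GFP-high. Chgb, the most abundant of the list, was at 664.9, 287.7, 35.7 and 48.5 CPM in the same order. In GFP-low 13 of 14 were at lower values under HFD with a median log2 ratio of -1.16, beside -0.45 for the 4 endocrine factors without Pax4. In GFP-high 10 of 14 were at higher values and 4 at lower values, with a median of 0.46. The median there was 0.74 for the 4 endocrine factors without Pax4 and 0.02 for all tested genes. Among the 10, Ghrl had 2 and 0 reads, Scg2 6 and 2, Gip 8 and 4 and Tph1 17 and 2 in the HFD and control GFP-high libraries. The log2 ratio of Cplx2 there was 0.03. The 7 markers that passed through GFP-low alone had at most 17 reads in a GFP-high library, so their diet ratios there are imprecise. The part of enteroendocrine cell numbers in the values of the endocrine factors was not tested.

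Of 12 Paneth markers tested, Nupr1 reached the filter in the GFP-low libraries alone and so had to be lower in GFP-high. Of the other 11, 9 were called lower in GFP-high. Under HFD 6 of the 12 were lower. Lyz1, the Paneth cell lysozyme, was at 914.6 CPM in control GFP-low, 584.6 in HFD GFP-low, 372.2 in control GFP-high and 231.2 in HFD GFP-high, and fell under HFD by 0.67 on the log2 scale (edgeR adjusted p = 0.00038). In GFP-high 9 of 12 Paneth markers were at lower values under HFD, with a median log2 ratio of -0.64, and 3 were at higher values. In GFP-low 11 of 12 were at lower values, with a median of -0.87. Enterocyte markers, by contrast, rose under HFD in 8 of 15, and Alpi, the intestinal alkaline phosphatase, was 3.97-fold higher. Sis, sucrase-isomaltase, which had the highest mean over the 4 libraries though not the highest level in each, was at 1998 and 455.8 CPM in the HFD and control GFP-low libraries without being called (edgeR adjusted p = 0.15).

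**Figure D4:**
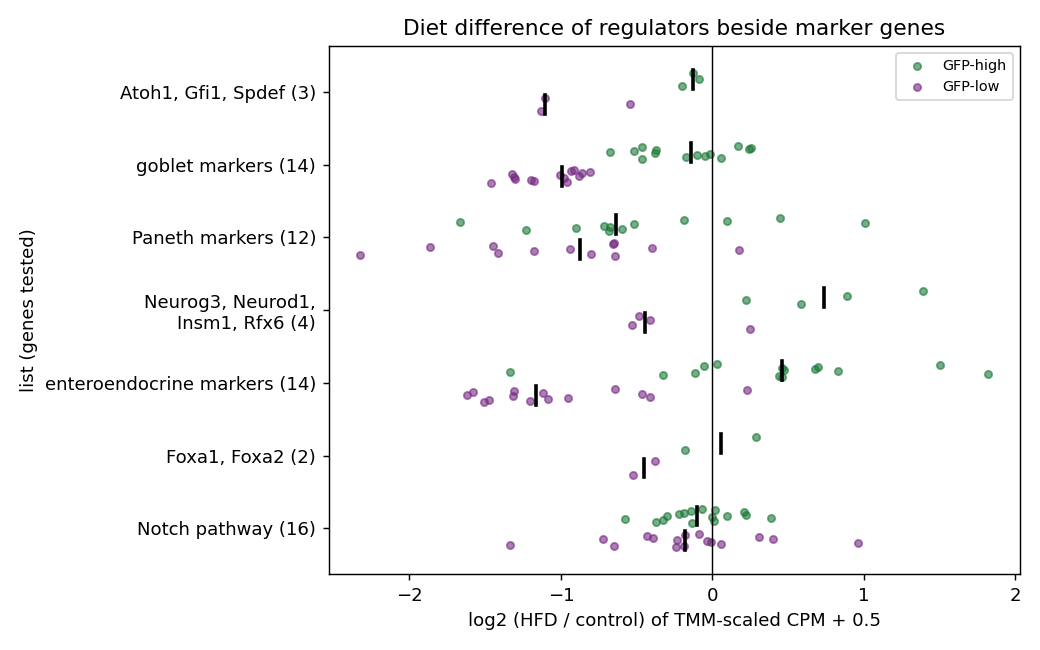
Log2 ratio of HFD over control, with 0.5 CPM added, for each tested gene of 7 groups within GFP-high (green) and GFP-low (purple), from 1 library per group. Points are genes and black bars medians. In GFP-low the goblet and enteroendocrine marker medians are -0.99 and -1.16, and in GFP-high the 4 endocrine factors shown, without Pax4, have a median of 0.74.

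Other regulators of the secretory lineages moved in both directions. Of 18 further endocrine regulators, 8 were tested and none was called between diets. Fev and St18 reached the filter in the GFP-low libraries alone. Of the other 6, 3 were lower and 2 higher in GFP-high. Fev, an ETS factor of serotonin-producing cells, was 6.51-fold lower in GFP-high, Myt1, a zinc finger partner of Neurog3, 3.01-fold lower, and the homeobox factor Nkx2-2 2.24-fold lower. Sox4, an SRY-related factor of early endocrine and tuft commitment, was 3.36-fold higher in GFP-high, and the ciliogenic factor Rfx3 1.46-fold higher. Pax6 and Isl1, homeobox factors of mature endocrine cells, did not reach the filter, with at most 24 and 16 reads in a library. In GFP-high 6 of the 8 were at higher values under HFD and in GFP-low 2 were. Among the 6, Fev had 12 and 4 reads and St18 16 and 11 in the HFD and control GFP-high libraries. The log2 ratio of Nkx2-2 there was 0.07. Sox4 and Rfx3 were at lower values in GFP-high.

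All 12 further goblet and Paneth regulators were tested, of which 6 were lower and 2 higher in GFP-high, and 2 were lower and none higher under HFD. Klf4, a Krüppel-like factor of goblet differentiation, was at 235.2 CPM in control GFP-low, 114.5 in HFD GFP-low, 58.6 in control GFP-high and 40.4 in HFD GFP-high. It was 3.40-fold lower in GFP-high and fell under HFD by 0.82 on the log2 scale (edgeR adjusted p = 0.0011). Sox9, which Paneth cells need and stem cells also express, was 2.68-fold higher in GFP-high and fell under HFD by 0.59 on the log2 scale (edgeR adjusted p = 0.0012). Creb3l4, a membrane-bound stress transducer, was 3.31-fold lower in GFP-high, and Hes6, an antagonist of Hes1, 1.28-fold higher.

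Of 5 tuft regulators 3 were tested, and 2, Runx1 and Sox4, were higher in GFP-high, by 4.30-fold and 3.36-fold, Runx1 having reached the filter in the GFP-high libraries alone. Pou2f3, the factor that tuft cells require, was at 7.34, 5.46, 7.78 and 4.30 CPM in the same order as the reads above, HFD before control and GFP-high before GFP-low, and was not called. None was called between diets. Of the tuft markers 3 of 11 were tested, 2 of which were lower in GFP-high, among them Avil, the highest by its mean over the 4 libraries but below Pou2f3 in both GFP-high libraries, and Dclk1 had 5, 16, 1 and 25 reads in the same order. Of 14 absorptive regulators 8 were lower and 2 higher in GFP-high, and 1 was higher and 1 lower under HFD. Maf, a bZIP factor of mature enterocytes, was 12.6-fold lower in GFP-high, and Hnf4g, a nuclear receptor of enterocyte genes, was 3.39-fold lower and rose 1.48-fold under HFD. The highest log2 differences of that list were those of Hes1 at 0.96 and of Hoxb6 at 0.59, which was not called.

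The Notch pathway, which acts on Atoh1, had 16 of 21 genes tested, with 8 higher and 6 lower in GFP-high and none called between diets. The receptors Notch1 and Notch2 were 4.27-fold and 3.05-fold higher in GFP-high. Hes1, the Notch target that represses Atoh1, was 1.94-fold higher in GFP-high and not called between diets (edgeR adjusted p = 0.99), at 92.9 and 93.2 CPM in the HFD and control GFP-high libraries and 47.8 and 48.0 in the GFP-low libraries. The ligands that secretory progenitors display were lower in GFP-high, Dll1 by 1.88-fold and Dll4 by 1.80-fold. Dll1 was at 135.2 CPM in HFD GFP-low and 212.7 in control GFP-low, and Dll4 at 26.5 and 67.7. In GFP-high Dll1 was at 90.3 and 89.8 CPM under the diets. The diet differences of Dll1 (log2 difference -0.34, edgeR adjusted p = 0.25) and Dll4 (-0.87, edgeR adjusted p = 0.073) were not called.

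The genes whose pattern lay nearest to 3 of the factors were found over the 4 libraries, by Euclidean distance between log2 CPM values centred on each gene's mean. Among the 10 factors the closest pair was Atoh1 and Spdef, at a distance of 0.157, followed by Neurog3 and Pax4 at 0.444. Nearest to Spdef was Gcnt3, a mucin-type glycosyltransferase, at 0.0717, with 50.3, 118.6, 52.7 and 242.0 CPM in the GFP-high and GFP-low libraries of HFD and then of control mice, then Tnfaip8 at 0.144 and Atoh1. Nearest to Atoh1 were Slc25a35 at 0.121, Dnajc10 at 0.145 and Slc22a15 at 0.150. Nearest to Neurod1 were Gimd1 at 0.131, Vcan at 0.155 and Selenom at 0.182. These distances rest on 4 libraries and are descriptive.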

How the data were processed

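RNA of 4 libraries, 1 for each diet and fraction, was analysed from the deposited raw read counts per gene. Tools named in the submitters' processing notes are cutadapt, TopHat 1.4.1 and HTSeq, with builds GRCm38 and mm10; strand setting and gene annotation release are not stated there. Per the labels' protocols the libraries were strand-specific. Symbols were matched for 36345 of 38124 IDs.

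Counts were scaled by TMM over all genes in edgeR 4.0.16 (R 4.3.3), and the 10694 genes that reached 20 counts in 2 or more libraries were tested with robust quasi-likelihood F-tests, two-sided, in a model of diet and fraction with 1 residual degree of freedom, adjusted by Benjamini-Hochberg at 0.05. The other factor's levels serve as replicates, so p-values reflect only how these pools vary, and those between diets are too small if fractions shared mice. The standard error (SE) is the log2 difference divided by the square root of F. Within a fraction or diet, ratios carry exact 95% Poisson intervals, ratios of 2 genes and shares exact binomial ones, all for counting error only, with no p-value. Lists' within-fraction medians and 2-fold counts use log2 of CPM + 0.5. Upstream sequences are from RefSeq (GRCm38.p6).

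The 10 factors and all lists were chosen with earlier results of these data known. All 10 factors are named; other regulator lists by the 2 highest and 2 lowest fraction differences, marker lists by the most abundant tested gene, plus a fixed set of 17 well-known genes. Scripts were tested on simulated data. Alternatives were other scalings, filters, models, pseudocounts, DESeq2 1.42.0 and leaving out each library; a non-robust fit, TMM on tested genes and endocrine sums without Pax4 were added after seeing the data.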

Additional observations from a re-analysis of the deposited data

Results flagged for a closer look

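For 4 factors the diet ratio had opposite signs in the fractions, higher under HFD in GFP-high and lower in GFP-low. For none of the 4 did the counting intervals of both fractions exclude 0. Those of Rfx6 and Insm1 included 0 in GFP-low, that of Neurod1 in GFP-high and those of Foxa2 in both. The share of all tested genes with opposite signs was not counted. The GFP-high minus GFP-low difference of the log2 diet ratios, with 0.5 CPM added, was 1.87 for Rfx6, 1.30 for Insm1, 0.75 for Neurod1 and 0.67 for Foxa2. The 95% counting interval, computed without the added 0.5 CPM, was 0.93 to 3.39 for Rfx6, 0.61 to 2.13 for Insm1 and 0.16 to 1.2 for Foxa2, and it included 0 for Neurod1 (-0.15 to 1.75). Each ratio came from 1 library per group, so the difference was not tested.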

How the results depend on the processing

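Of the 10 factors, 8 were called between fractions. With a filter of 100 counts 5 were tested and 3 called, Atoh1, Spdef and Neurog3, each of which was also called before. With only the fraction in the model 4 were called, and 1 to 4 when a library was left out as well, which that smaller model alone allows. All those called were lower in GFP-high. Genes called between fractions numbered 5090, and 2948 with only the fraction in the model, 2390 by DESeq2's Wald test, and 954 to 2118 with the smaller model and a library left out. Scaling by library totals gave 3633 higher and 1903 lower calls in GFP-high, against 2350 and 2740. Between diets 691 genes were called, 1158 with no filter beyond 1 count, 189 by DESeq2, and 0 with only diet in the edgeR model (149 at an unadjusted p under 0.05) and likewise 0 with a library left out of that model (86 to 159 at that level). The smaller model alone thus gave the 0. No factor was called between diets, but 2, Atoh1 and Spdef, were with no filter. The same 2 were called in the non-robust fit, an alternative that was added after seeing the data.

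The Foxa1 fraction difference reversed to 0.18 with library totals and to 0.00047 with DESeq2 size factors, and ranged from -0.27 to 0.26 with a library left out. The Rfx6 diet difference was -0.10 with only diet in the model, and that of Foxa2 -0.040 by DESeq2. Leaving out a library unbalances the design, because diet and fraction are then no longer crossed, and diet differences ranged from -1.57 to 0.45 for Atoh1, -1.62 to 0.61 for Spdef, -1.13 to 0.60 for Gfi1, -1.41 to 1.27 for Neurod1, -0.63 to 1.2 for Insm1, -0.95 to 2.28 for Rfx6 and -0.41 to 0.32 for Foxa2. All within-fraction and within-diet ratios kept their direction with 0.1 or 2 CPM added and with library totals.

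Per 1000000 reads, the 10 factors had 219.1, 284.8, 208.8 and 499.9 in the GFP-high and GFP-low libraries of HFD and then of control mice, and 178.2, 208.9, 162.3 and 330.1 without Atoh1, which had the most reads over the 4 libraries summed though Foxa1 had more in both GFP-high libraries. Without Pax4 the summed endocrine factors kept their direction in all 4 comparisons. The interval of their diet ratio in GFP-low was 0.747 to 1.001 with Pax4 and 0.715 to 0.967 without it. Only the second, a choice made after seeing the data, lay wholly below 1. Pax4 and Rfx6 had as few as 8 and 10 reads, so their ratios are the least precise. The model with diet and fraction already pairs the fractions within a diet, and with 1 library per group no further replicate block could be fitted.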
